A study of Macaca mulatta with 10 samples.

Results

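Rab proteins are small GTPases that label the membranes of a cell and direct its vesicles. The genes described here are those of the rhesus macaque files whose Ensembl identifier carries a symbol of the form *RAB*, a number and at most 1 letter. The name table holds 59 such symbols, 40 of them were found among the 28595 genes of the files, and each stands for 1 gene. The other 19, which include *RAB8A*, *RAB10* and *RAB5A*, are not analysed here. A symbol could be given to 54.4% of all genes. The Rab genes were selected by name and not by any measured value.

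RNA-Seq libraries of adipose tissue and skeletal muscle came from 5 male rhesus monkeys, 1 library per tissue and animal, 10 in all. The hyperinsulinemic monkey, rhesus_950807, had an extremely high insulin level and carried a heterozygous nonsense mutation of *PRKD2* (K410X), and it is the only such animal with libraries here. The control monkeys were rhesus_920401, rhesus_940129, rhesus_940313 and rhesus_950509, and their values are listed in this order throughout. All animals of the study shared a facility and a diet, and rhesus_950807 was also the more obese, so that insulin level, genotype and body weight cannot be told apart.

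Each Rab protein cycles between a GDP-bound form in the cytosol and a GTP-bound form on a membrane, where it recruits effectors such as tethers and motors. Exchange factors load GTP, GTPase-activating proteins end the signal, and GDI proteins return the GDP form to the cytosol. In muscle and fat cells insulin brings the glucose transporter GLUT4, encoded by *SLC2A4*, to the cell surface. To this end the kinase AKT phosphorylates the products of *TBC1D4* and *TBC1D1*, which are GTPase-activating proteins for Rab proteins on GLUT4 vesicles. RAB10 is known for this role in fat cells of the mouse and RAB8A and RAB13 in cultured rat muscle cells, and RAB14 has been found on GLUT4 vesicles.

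The mapped total was 41780234 reads for rhesus_950807 adipose tissue and 30669915 to 39379286 for control adipose tissue, and 33961486 for rhesus_950807 muscle and 35682861 to 43268985 for control muscle. *PRKD2* was at 3.66 RPKM (reads per kilobase of transcript, scaled to the mapped total) in adipose tissue of rhesus_950807, within the 3.27 to 6.12 RPKM of controls, and at 0.387 RPKM in its muscle, below the 1.14 to 1.79 RPKM of controls. Of 8 adipocyte markers tested 6 were higher in control adipose tissue, and 7 of 7 skeletal muscle markers were higher in control muscle. The gene named *FABP4*, on the adipocyte list, went the other way, at a log2 difference of −6.03. The muscle actin *ACTA1* was at 1.72 RPKM in adipose tissue of rhesus_950807, and at 101, 1.18, 80.9 and 0.444 RPKM in that of controls, so the tissue results are also given without the adipose libraries of rhesus_920401 and rhesus_940313. In adipose tissue the summed RPKM of 8 macrophage markers was 840 in rhesus_950807 and 205 to 642 in controls, and that of 7 fibroblast markers 3003 and 1496 to 2449. In muscle the macrophage sum was 18.2 in rhesus_950807, within the 17.6 to 50.1 of controls, while that of 7 skeletal muscle markers was 82090.5, above the 62492.8 to 82001.5 of controls, and the fibroblast sum was 166, below their 168 to 239. Among the muscle markers, *MYH7* of slow fibers was at 12.9 RPKM in rhesus_950807, against 80.1, 531, 45.5 and 72.0 RPKM in controls, and *TNNT1*, of slow fibers too, at 14.3 RPKM against 90.01, 651, 69.7 and 130 RPKM. Both were below every control (edgeR adjusted p = 0.496 and 0.482). Over 10 smooth muscle and pericyte markers the median log2 difference in muscle, rhesus_950807 minus controls, was −1.22. Over the 6 macrophage markers tested in muscle it was −1.06. The summed RPKM of the 10 smooth muscle and pericyte markers was 3805 in muscle of rhesus_950807, within the 2472 to 5218 of controls. None of these markers passed after adjustment. The part of other cell and fiber types in the Rab results was not tested. In bulk tissue, fewer cells of a type and less RNA per cell cannot be told apart.

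The Rab genes had more RPKM in adipose tissue than in muscle, and a few of them carried much of the signal in each tissue. RPKM is scaled to the mapped total. On that scale the median adipose minus muscle log2 difference in controls was 1.61 over all genes tested and 2.03 over the Rab genes. The RPKM values of the Rab genes summed to 716 in adipose tissue of rhesus_950807, against 535 to 665 in that of controls. In muscle the sum was 317 in rhesus_950807, against 244 to 287 in controls. In both tissues the hyperinsulinemic monkey lay above every control. The part of its mapped reads that fell in genes was 61.4% in adipose tissue, against 48.2% to 59.4% in controls. In muscle that part was 64.6%, against 52.0% to 62.1% in controls. By RPKM it lay above every control for 27.9% of all genes tested in adipose tissue and 34.9% in muscle. As a share of the RPKM of all genes, the Rab genes made up 0.194% in adipose tissue of rhesus_950807, against 0.1602% to 0.188% in controls. In muscle they made up 0.0778% in rhesus_950807, within the 0.0653% to 0.0820% of controls.

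*RAB7A*, which directs late endosomes to lysosomes, had the highest RPKM of the Rab genes in each tissue. It alone gave 19.7% of the Rab sum in adipose tissue of rhesus_950807, against 16.8% to 23.1% in controls, and 29.9% in its muscle, against 28.7% to 31.6% in controls. *RAB11B*, a Rab of the recycling endosome, ranked next in each tissue. In control adipose tissue *RAB7A* averaged 119 RPKM, *RAB11B* 80.7, *RAB2A* 56.6, *RAB13* 40.6 and *RAB11A* 35.4 RPKM. In control muscle *RAB7A* averaged 80.3 RPKM, *RAB11B* 49.1, *RAB1B* 21.0, *RAB2A* 14.9 and *RAB5B* 12.7 RPKM. The 10 highest Rab genes of each tissue had 7 in common, namely *RAB7A*, *RAB11B*, *RAB2A*, *RAB13*, *RAB11A*, *RAB6A* and *RAB1B*. The 3 highest held 38.9% to 47.3% of the Rab sum in control adipose tissue and 55.2% to 59.7% in control muscle. Neighbours in these orders often overlapped between control libraries, as *RAB13* at 30.5 to 47.2 RPKM and *RAB11A* at 31.7 to 39.2 RPKM did in adipose tissue. RPKM divides by the length of the gene model, and those of *RAB2B* and *RAB4B* have only 543 bases.

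**Figure D1:**
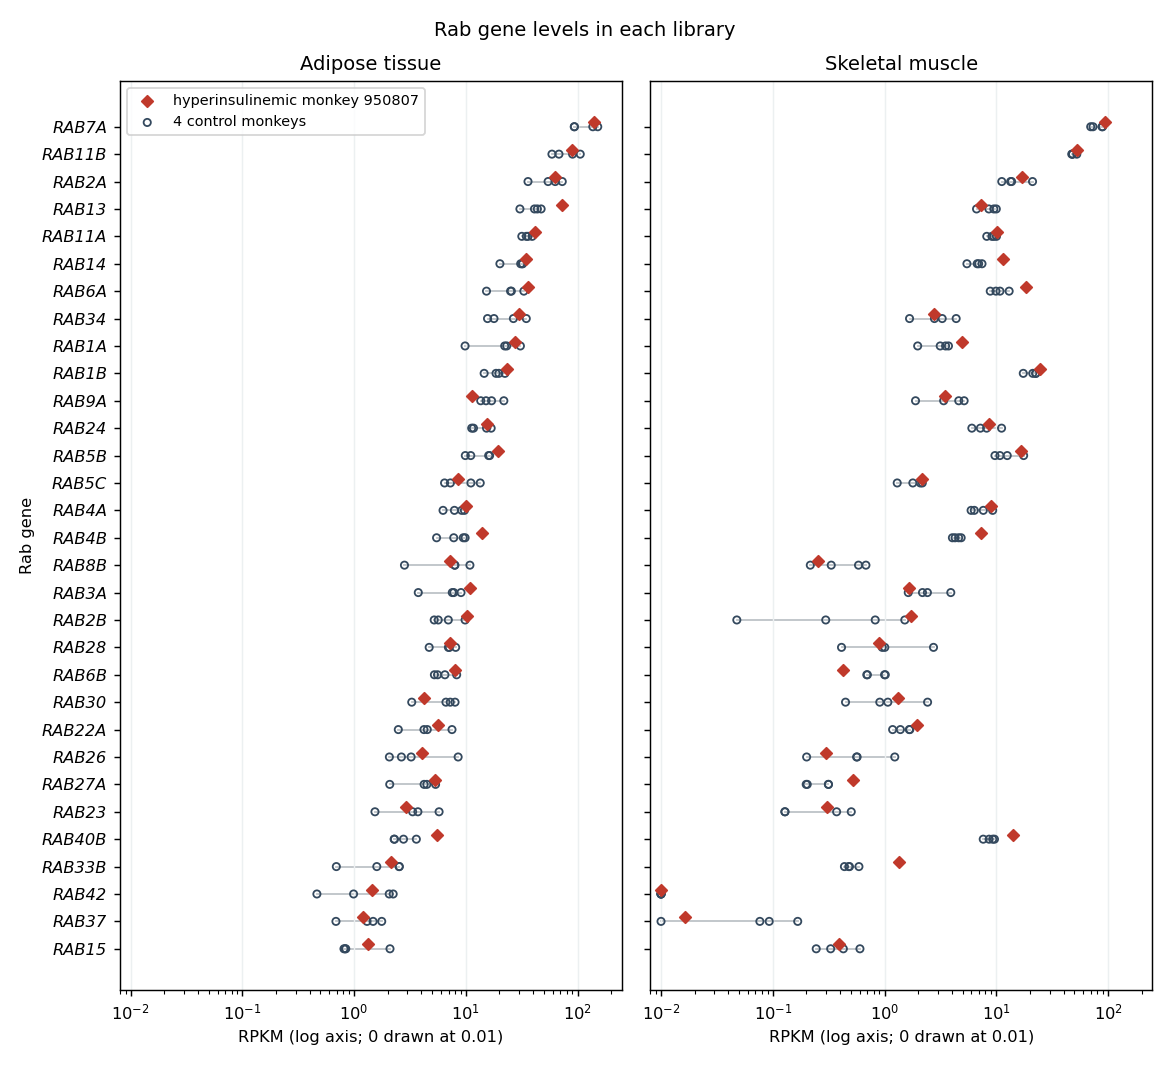
RPKM (log axis) in each library of the Rab genes with a control mean of at least 1 RPKM in adipose tissue, ordered by that mean, in adipose tissue at the left and muscle at the right. Diamonds are the hyperinsulinemic monkey and circles the 4 controls; *RAB7A* is highest in both panels, and *RAB40B*, among the lower genes of adipose tissue, lies further up in muscle.

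Over the 31 Rab genes tested in adipose tissue, the median coefficient of variation among the 4 controls was 29.4%, lowest for *RAB11A* (8.80%) and highest for *RAB26* (72.2%). Over the 21 tested in muscle it was 20.5%, lowest for *RAB11B* (4.83%) and highest for *RAB28* (79.2%). Over the 21 Rab genes tested in both tissues the median was 24.9% in adipose tissue and 20.5% in muscle, with 12 genes higher in adipose tissue, and over all 7938 such genes it was 27.5% and 22.6%, with 59.8% higher. The adipose library of rhesus_940129 was the lowest of the controls for 12 of 31 Rab genes and the highest for 12, while it was the lowest for 36.4% and the highest for 33.1% of all genes tested.

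Several Rab genes had few or no reads. *RAB19*, *RAB25* and *RAB41* had 0 reads in all 10 libraries. *RAB17*, *RAB36*, *RAB38*, *RAB3B*, *RAB3C* and *RAB44* had reads but a mean below 1 RPKM in each tissue. *RAB25* and *RAB17* are known from epithelial cells, and *RAB3B* and *RAB3C* from neurons and secretory cells. *RAB38*, known from melanosomes, and *RAB42* had reads in all 5 adipose libraries and 0 reads in all 5 muscle libraries. *RAB38* had 37 reads in adipose tissue of rhesus_950807, against 20, 29, 41 and 19 reads in that of controls. *RAB42* had 40 reads in adipose tissue of rhesus_950807, against 44, 45, 25 and 12 in that of controls. Against a floor of 3 reads in a muscle library, the mean RPKM in control adipose tissue was at least 9.24-fold higher for *RAB38* and at least 11.2-fold higher for *RAB42*. The floor covers counting error only. These folds are on the RPKM scale, where the median adipose minus muscle log2 difference over all genes tested was 1.61. Both genes were picked for having reads in every adipose library and none in muscle, so the direction was built into their selection.

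A gene was tested where its mean over the libraries of a fit reached 1 RPKM. This left 31 Rab genes in adipose tissue, 21 in muscle and 28 for the comparison of tissues. Of the 31, 10 were tested in adipose tissue alone. *RAB2B*, *RAB6B*, *RAB8B*, *RAB23*, *RAB26*, *RAB27A* and *RAB33B* averaged under 1 RPKM in control muscle and entered the comparison of tissues through their level in adipose tissue, so a difference in that direction was built into their selection.

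The comparison of adipose tissue with muscle asked which Rab genes each insulin-responsive tissue expresses. Among the 4 control monkeys, 12 of the 28 Rab genes tested passed, 8 with more mRNA in adipose tissue and 4 with more in muscle. The 8 were *RAB8B*, *RAB27A*, *RAB23*, *RAB2B*, *RAB34*, *RAB6B*, *RAB1A* and *RAB5C*, and the 4 were *RAB40B*, *RAB1B*, *RAB5B* and *RAB4A*. Among the 8, *RAB8B*, *RAB27A*, *RAB23*, *RAB2B* and *RAB6B* entered the comparison through their level in adipose tissue. Their direction was built into the selection, and their calls are not separate support for it. To pass, a gene needed an adjusted p (edgeR's quasi-likelihood test, two-sided, Benjamini-Hochberg over 11173 genes) under 0.05 and an absolute log2 difference of at least 1. Of all genes tested, 29.6% passed as higher in adipose tissue and 22% as higher in muscle, against 8 and 4 of the 28 Rab genes. The median log2 difference, adipose minus muscle, was 0.66 over the Rab genes tested and 0.23 over all genes. A further 5 Rab genes had an adjusted p under 0.05 with a difference below 1.

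These directions depend on the scaling. TMM, the main scaling, centres the bulk of the genes, while scaling to the mapped total moves the median of all genes to 1.61 and that of the Rab genes to 2.03. The Rab median was 0.42 above that of all genes under either scaling. A change of scaling shifts all genes of a fit nearly alike, so that agreement was fixed in advance. With no filter on low values the Rab median was 0.15 above that of all genes (0.77 against 0.61). With mapped totals 21 Rab genes passed, 20 of them higher in adipose tissue, and the share of calls higher in adipose tissue over all genes was 89.8%, against 57.4% with TMM. The 8 Rab genes higher in adipose tissue passed with TMM and with mapped totals, and of the 4 higher in muscle *RAB40B* did. With median-of-ratios scaling 11 Rab genes passed, 7 of them higher in adipose tissue, and *RAB5C* did not, nor did it with DESeq2 or with no filter. Under TMM 19 of the 28 differences were above 0 and under mapped totals 26, and 7 changed sign. In RPKM, which is scaled to the mapped total, every control adipose library was above every control muscle library for 23 of the 28. The reverse held for 1. The share of all genes without such overlap was not computed. Without the adipose libraries of rhesus_920401 and rhesus_940313, 10 Rab genes passed, 9 of them among the 12. *RAB1A*, *RAB2B* and *RAB5C* then did not pass and *RAB26* did. Leaving out rhesus_920401 or rhesus_940129 took *RAB2B* off the list, leaving out rhesus_940313 took off *RAB2B* and *RAB5C*, and leaving out rhesus_950509 took off *RAB5C*.

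**Figure D2:**
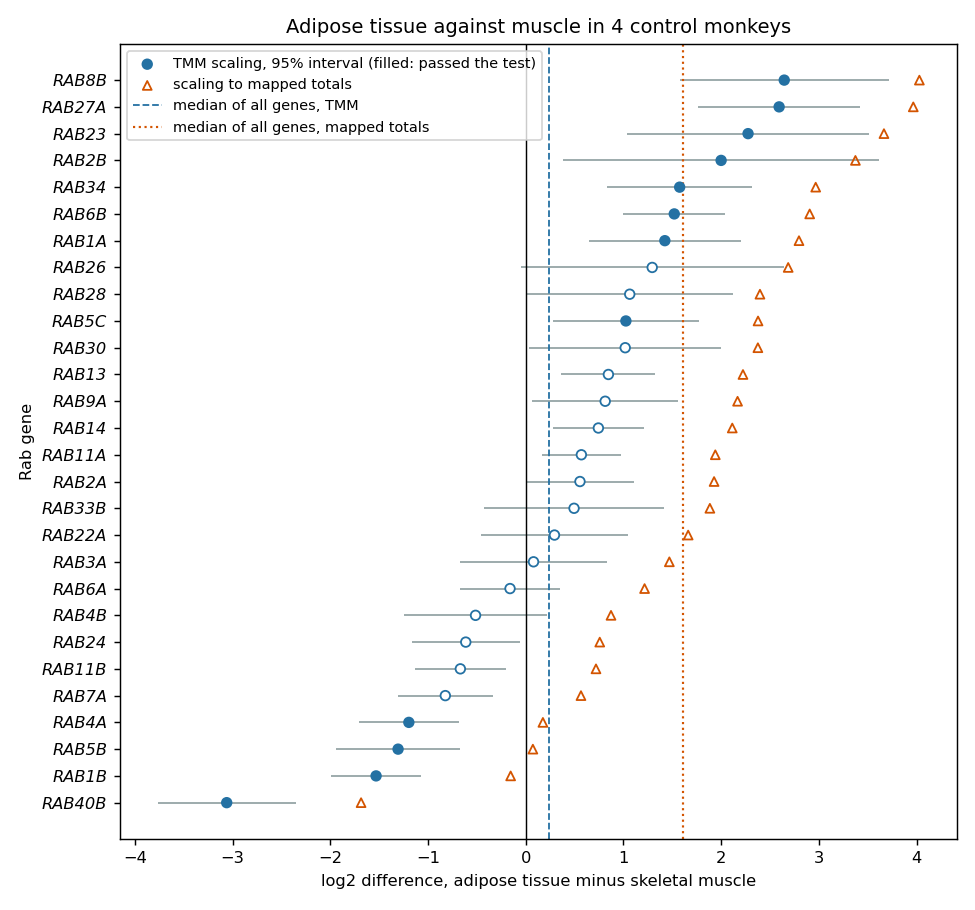
Log2 difference, adipose tissue minus skeletal muscle, of the 28 Rab genes tested in 4 control monkeys. Circles with 95% intervals are the TMM fit, filled where the gene passed, and triangles the fit scaled to mapped totals, which lies to the right for each gene and puts 7 genes above 0 that TMM puts below; vertical lines mark the medians of all genes, 0.23 and 1.61.

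The Rab genes of delivery to the cell surface include those of GLUT4 vesicles, and 3 of them were tested. *RAB8A*, *RAB10* and *RAB12* of this class were not found. The 3 were among the 18 of 28 Rab genes tested that lay above the median of all genes under TMM. *RAB8B*, a close relative of *RAB8A* that acts between the Golgi and the cell surface, was at 7.98, 2.82, 7.93 and 10.9 RPKM in control adipose tissue, against 0.682, 0.334, 0.217 and 0.585 RPKM in control muscle. No adipose library came near a muscle library, and the log2 difference was 2.65 ± 0.49 (SE, n = 4 per tissue; edgeR adjusted p = 0.000663). The muscle values of *RAB8B* rest on 26 to 73 reads a library, and its gene overlaps another on the same strand and *CA12* on the opposite one. *RAB8B* averaged 0.454 RPKM in control muscle and entered the comparison through its level in adipose tissue. *RAB13*, which directs vesicles to the cell surface and to tight junctions, was at 47.2, 41.1, 43.6 and 30.5 RPKM in control adipose tissue, against 6.66, 9.52, 8.59 and 10.01 RPKM in control muscle. *RAB14*, which acts between endosomes, the Golgi and the surface, was at 32.2, 20.2, 31.9 and 30.9 RPKM in control adipose tissue, against 5.47, 7.46, 6.96 and 6.75 RPKM in control muscle. For both genes the tissues did not overlap in RPKM, as for 23 of the 28 Rab genes tested with adipose tissue higher. The log2 differences after TMM, 0.85 ± 0.22 for *RAB13* and 0.74 ± 0.21 for *RAB14* (SE, n = 4 per tissue), had edgeR adjusted p of 0.00575 and 0.00994 but stayed under the limit of 1, and both passed with mapped totals.

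Of the 9 Rab genes tested that act from the endoplasmic reticulum through the Golgi, 4 were higher in adipose tissue and 1 in muscle. Over all genes tested the shares were 29.6% and 22%. The median log2 difference was 1.02 over the 9 and 0.23 over all genes. Among the 9, *RAB2B*, *RAB6B* and *RAB33B* entered the comparison through their level in adipose tissue. *RAB1A* and *RAB1B* serve the same step, from the endoplasmic reticulum to the Golgi. *RAB1A* was at 23.2, 9.84, 30.8 and 22.3 RPKM in control adipose tissue, against 3.15, 1.98, 3.52 and 3.74 RPKM in control muscle. *RAB1B* was at 19.8, 22.4, 18.6 and 14.6 RPKM in control adipose tissue, against 21.2, 22.6, 22.6 and 17.5 RPKM in control muscle. The first was higher in each adipose library than in any muscle library, while the second overlapped between the tissues. After TMM the log2 difference was 1.42 ± 0.36 for *RAB1A* (edgeR adjusted p = 0.00462) and −1.53 ± 0.21 for *RAB1B* (8.11e-05), with SE over 4 libraries per tissue. With mapped totals that of *RAB1B* was −0.15 and did not pass. *RAB1A* overlaps *CEP68* on the other strand.

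*RAB2A* and *RAB2B* act between the endoplasmic reticulum and the Golgi. *RAB2B* was at 5.66, 9.85, 5.21 and 6.97 RPKM in control adipose tissue, against 0.0477, 0.826, 0.298 and 1.52 RPKM in control muscle, where the reads numbered 1, 16, 7 and 30. Its log2 difference was 1.999 ± 0.74 (SE, n = 4 per tissue; edgeR adjusted p = 0.0339), with the widest error among the 12. It did not pass without rhesus_920401 (1.73), rhesus_940129 (1.79) or rhesus_940313 (1.83). *RAB2A* was at 72.9, 36.0, 54.5 and 63.0 RPKM in control adipose tissue, against 13.7, 21.1, 13.5 and 11.2 RPKM in control muscle, and its log2 difference of 0.55 ± 0.25 did not pass (edgeR adjusted p = 0.0742).

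*RAB6A* and *RAB6B* act in vesicle traffic at the Golgi, and *RAB6B* is known from neurons. *RAB6B* was at 8.27, 6.50, 5.58 and 5.23 RPKM in control adipose tissue, against 0.703, 1.02, 0.694 and 1.002 RPKM in control muscle, a log2 difference of 1.52 ± 0.24 (SE, n = 4 per tissue; edgeR adjusted p = 0.000203). *RAB34*, which acts at the Golgi and in the building of cilia, was at 26.6, 34.7, 17.9 and 15.6 RPKM in control adipose tissue, against 2.80, 3.28, 1.68 and 4.38 RPKM in control muscle. Every adipose library was above every muscle library for both genes, and for *RAB34* the log2 difference was 1.58 ± 0.34 (SE, n = 4 per tissue; edgeR adjusted p = 0.00178). *RAB6A* was at 33.04, 15.3, 25.5 and 25.1 RPKM in control adipose tissue, against 8.84, 13.0, 10.8 and 9.94 RPKM in control muscle, with a log2 difference after TMM of −0.16 ± 0.24 that did not pass. With mapped totals it was 1.22 and passed (edgeR adjusted p = 0.00103). The gene of *RAB6A* overlaps another on the same strand.

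*RAB27A* was the Rab gene of regulated secretion that passed. It docks secretory granules, melanosomes and exosome-releasing bodies at the plasma membrane. It was at 5.36, 2.08, 4.48 and 4.23 RPKM in control adipose tissue, against 0.199, 0.315, 0.315 and 0.203 RPKM in control muscle, where it had 25 to 46 reads a library. *RAB27A* averaged 0.258 RPKM in control muscle and entered the comparison through its level in adipose tissue, so the direction was built into its selection. The log2 difference was 2.59 ± 0.38 (SE, n = 4 per tissue; edgeR adjusted p = 0.000123). *RAB26* and *RAB3A*, known from secretory granules and synaptic vesicles, did not pass, at 1.29 ± 0.62 and 0.079 ± 0.34.

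The early endosome genes went in both directions. *RAB5B* and *RAB5C* encode close isoforms of a Rab protein of endosome fusion. *RAB5C* was at 6.45, 7.27, 13.4 and 11.1 RPKM in control adipose tissue, against 2.18, 1.79, 2.09 and 1.30 RPKM in control muscle, a log2 difference of 1.02 ± 0.34 (SE, n = 4 per tissue; edgeR adjusted p = 0.0213), just past the limit of 1. It did not pass under 7 of 10 alternatives, among them median-of-ratios scaling, no filter, DESeq2 and the animal as a block. Over all 10 its difference was 0.83 to 2.38, the highest with mapped totals, where it passed. *RAB5B* was at 11.1, 16.3, 9.89 and 16.002 RPKM in control adipose tissue, against 12.5, 9.74, 17.6 and 10.8 RPKM in control muscle. These values of *RAB5B* overlapped, and its log2 difference of −1.31 ± 0.29 (SE, n = 4 per tissue; edgeR adjusted p = 0.00226) under TMM became 0.072 with mapped totals. *RAB4A*, which returns cargo rapidly from early endosomes to the surface, was at 9.71, 6.25, 7.90 and 9.18 RPKM in control adipose tissue, against 6.36, 9.29, 7.66 and 5.96 RPKM in control muscle. Its values overlapped too, with a log2 difference of −1.20 ± 0.23 under TMM (SE, n = 4 per tissue; edgeR adjusted p = 0.000922) and 0.18 with mapped totals. *RAB4B* and *RAB22A* did not pass, at −0.51 ± 0.34 and 0.29 ± 0.35.

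The abundant Rab genes of recycling and late endosomes differed less. *RAB7A* was at 151, 137, 93.5 and 93.6 RPKM in control adipose tissue, against 73.4, 89.4, 88.5 and 70.0 RPKM in control muscle. *RAB11B* was at 90.2, 106, 68.1 and 59.0 RPKM in control adipose tissue, against 52.6, 48.2, 48.1 and 47.4 RPKM in control muscle. In RPKM both were higher in every adipose library. After TMM their log2 differences were −0.82 ± 0.22 and −0.67 ± 0.21 (SE, n = 4 per tissue; edgeR adjusted p = 0.00688 and 0.0171), within the limit of 1, and with mapped totals they were 0.56 and 0.72. *RAB11A*, the other recycling Rab, was at 36.0, 31.7, 39.2 and 34.8 RPKM in control adipose tissue, against 9.52, 10.04, 9.15 and 8.22 RPKM in control muscle. Its log2 difference of 0.57 ± 0.18 under TMM (edgeR adjusted p = 0.0182) lay on the opposite side of 0 from that of *RAB11B*, and with mapped totals both lay above 0. *RAB9A*, which returns receptors from late endosomes to the Golgi, and *RAB24*, linked to autophagy, did not pass, at 0.81 ± 0.34 and −0.61 ± 0.25.

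*RAB40B* was the one Rab gene that passed as higher in muscle both with TMM and with mapped totals. Its protein carries a SOCS box and serves ubiquitin ligases. It was at 2.28, 3.61, 2.30 and 2.77 RPKM in control adipose tissue, against 7.65, 8.63, 9.64 and 9.30 RPKM in control muscle. Every muscle library was above every adipose library, with a log2 difference of −3.06 ± 0.32 (SE, n = 4 per tissue; edgeR adjusted p = 1.06e-05) under TMM and −1.69 with mapped totals. *RAB23*, which restrains Hedgehog signaling, was at 3.72, 1.54, 3.34 and 5.76 RPKM in control adipose tissue, against 0.373, 0.128, 0.129 and 0.504 RPKM in control muscle. Its log2 difference was 2.28 ± 0.57 (SE, n = 4 per tissue; edgeR adjusted p = 0.00437), with 14 to 56 reads in a muscle library. *RAB23* averaged 0.283 RPKM in control muscle and entered the comparison through its level in adipose tissue.

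Within a library the ratio of a pair of paralogs does not depend on the scaling, so 6 pairs were compared in this way. The ratio is that of the RPKM of the member named first over that of the other. In 4 of the 6 pairs the ratios of the tissues did not overlap among the controls. How often this holds for other gene pairs was not computed. Of all single genes tested, 29.6% passed as higher in adipose tissue and 22% as higher in muscle. That is a different measure and gives no reference for the 4 of 6 pairs. The *RAB1B* over *RAB1A* ratio was 0.851, 2.27, 0.605 and 0.655 in control adipose tissue, against 6.73, 11.4, 6.42 and 4.67 in control muscle. Adipose tissue thus held more *RAB1A* in 3 of 4 controls, and muscle held several times more *RAB1B*. The *RAB5B* over *RAB5C* ratio was 1.72, 2.24, 0.735 and 1.44 in control adipose tissue, against 5.76, 5.43, 8.41 and 8.30 in control muscle. The *RAB6A* over *RAB6B* ratio was 3.99, 2.36, 4.57 and 4.80 in control adipose tissue, against 12.6, 12.8, 15.5 and 9.92 in control muscle. The *RAB11B* over *RAB11A* ratio was 2.50, 3.33, 1.74 and 1.70 in control adipose tissue, against 5.52, 4.80, 5.25 and 5.76 in control muscle. In these pairs *RAB5B*, *RAB6A* and *RAB11B* outweighed their paralogs more in muscle.

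The adipose minus muscle difference of the log2 ratio was −2.89 ± 0.45 for *RAB1B* over *RAB1A*, −2.27 ± 0.98 for *RAB5B* over *RAB5C*, −1.73 ± 0.57 for *RAB6A* over *RAB6B* and −1.26 ± 0.55 for *RAB11B* over *RAB11A* (SD over 4 animals), below 0 in all 4 animals for each. A two-sided exact permutation test of 4 against 4 libraries gave p = 0.0286 for each of these, the smallest it can give, and 0.0429 after Benjamini-Hochberg adjustment over the 6 pairs. An exact permutation test over the 4 paired animals gave 0.125, the smallest it can give. For *RAB2A* over *RAB2B* and *RAB4A* over *RAB4B* the exact permutation p was 0.114 each, and the ratio was lower in adipose tissue in 3 of 4 animals. The pairs were chosen with the values of single genes known. *RAB1A*, *RAB1B*, *RAB5B*, *RAB5C* and *RAB6B* had already passed between the tissues in these same libraries. *RAB6B* entered the comparison through its level in adipose tissue. The tests of their ratios are thus not separate support for a difference. As only uniquely mapped reads were used, reads that fit both members of a pair are missing from each. The genes of *RAB6A* and *RAB11A* each overlap another on the same strand.

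**Figure D3:**
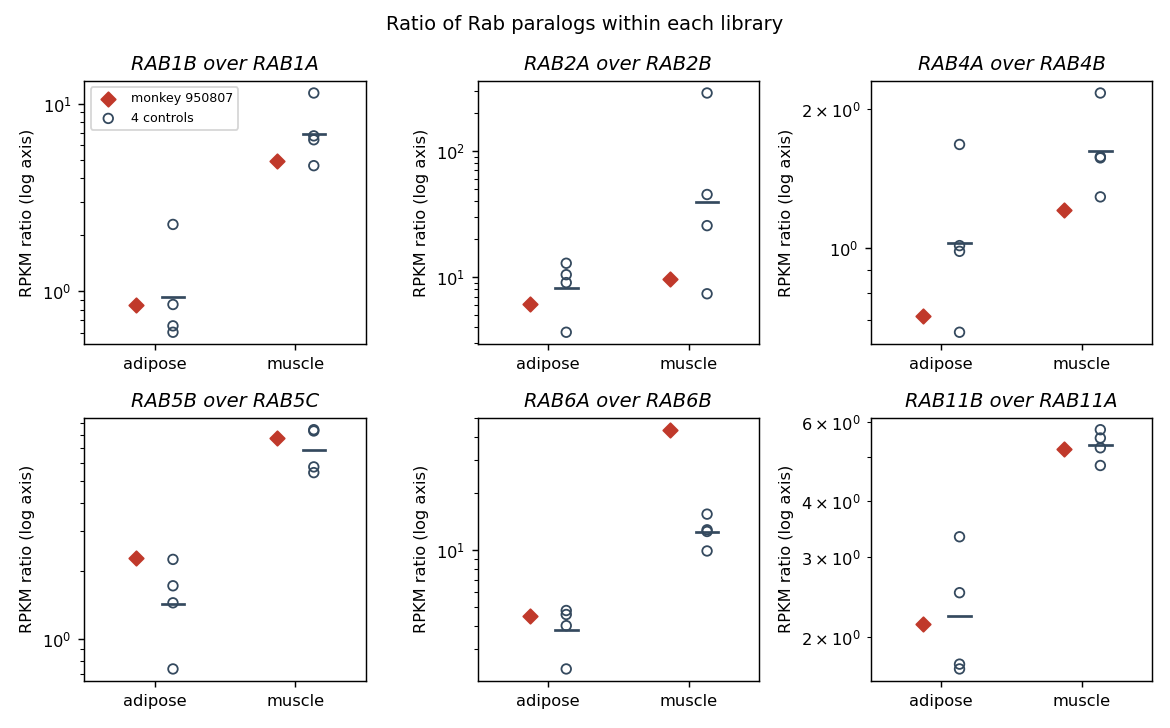
Ratio of RPKM of Rab paralogs (log axis) in each library, adipose tissue and muscle side by side for each pair. Diamonds are the hyperinsulinemic monkey, circles the 4 controls and bars the geometric mean of the controls; 4 pairs do not overlap between the tissues of the controls, and the *RAB6A* over *RAB6B* ratio of rhesus_950807 in muscle, 43.5, stands above the controls.

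In rhesus_950807 the ratios lay within those of the controls of the same tissue for *RAB1B* over *RAB1A* and *RAB11B* over *RAB11A*. The *RAB6A* over *RAB6B* ratio was 4.52 in its adipose tissue, within the controls, and 43.5 in its muscle, against 9.92 to 15.5 in control muscle. Behind the muscle ratio stand 1758 reads of *RAB6A* and 79 of *RAB6B*, and 1 animal against 4 cannot give an exact permutation p below 0.2. The *RAB5B* over *RAB5C* ratio in its adipose tissue, 2.27, was just above the highest control, 2.24, and the *RAB4A* over *RAB4B* ratio in its muscle, 1.21, just below the lowest, 1.29.

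The comparison of the hyperinsulinemic monkey with the controls asked whether vesicle traffic genes go with high insulin in either tissue. No Rab gene passed the test in adipose tissue or muscle. In adipose tissue 0 of 31 Rab genes and 0% of the 11981 genes tested had an adjusted p under 0.05 by edgeR, 0 Rab genes and 286 genes had an unadjusted p under 0.05, and DESeq2 called 0 Rab genes and 11 genes. In muscle 0 of 21 Rab genes and 0% of the 8306 genes tested passed by edgeR, 2 Rab genes and 754 genes had an unadjusted p under 0.05, and DESeq2 called 0 Rab genes and 88 genes. The median log2 difference, rhesus_950807 minus controls, was 0.058 over the Rab genes and −0.062 over all genes in adipose tissue, and 0.062 and −0.028 in muscle. With mapped totals the medians were 0.25 over the Rab genes and 0.13 over all genes in adipose tissue, and 0.23 and 0.14 in muscle. The spread of the 1 hyperinsulinemic animal was assumed to equal that among control animals.

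By position alone, after TMM scaling, rhesus_950807 was above all 4 controls for 5 of 31 Rab genes in adipose tissue (15.7% of all genes) and below them for 1 (14.3% of all genes). In muscle it was above all controls for 6 of 21 (24.3% of all genes) and below them for 2 (23.8% of all genes). By the deposited RPKM it was above all controls for 11 of 31 in adipose tissue (27.9% of all genes) and below for 1 (7.8% of all genes), and above for 10 of 21 in muscle (34.9% of all genes) and below for 0 (15.2% of all genes). After TMM the genes above all controls were *RAB13*, *RAB3A*, *RAB40B*, *RAB4B* and *RAB6A* in adipose tissue, with *RAB9A* below. In muscle they were *RAB14*, *RAB1A*, *RAB22A*, *RAB40B*, *RAB4B* and *RAB6A*, with *RAB13* and *RAB3A* below. *RAB40B*, *RAB4B* and *RAB6A* were thus above all controls in both tissues, 3 of the 21 Rab genes tested in both, against 3.02% of the 7938 genes tested in both.

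**Figure D4:**
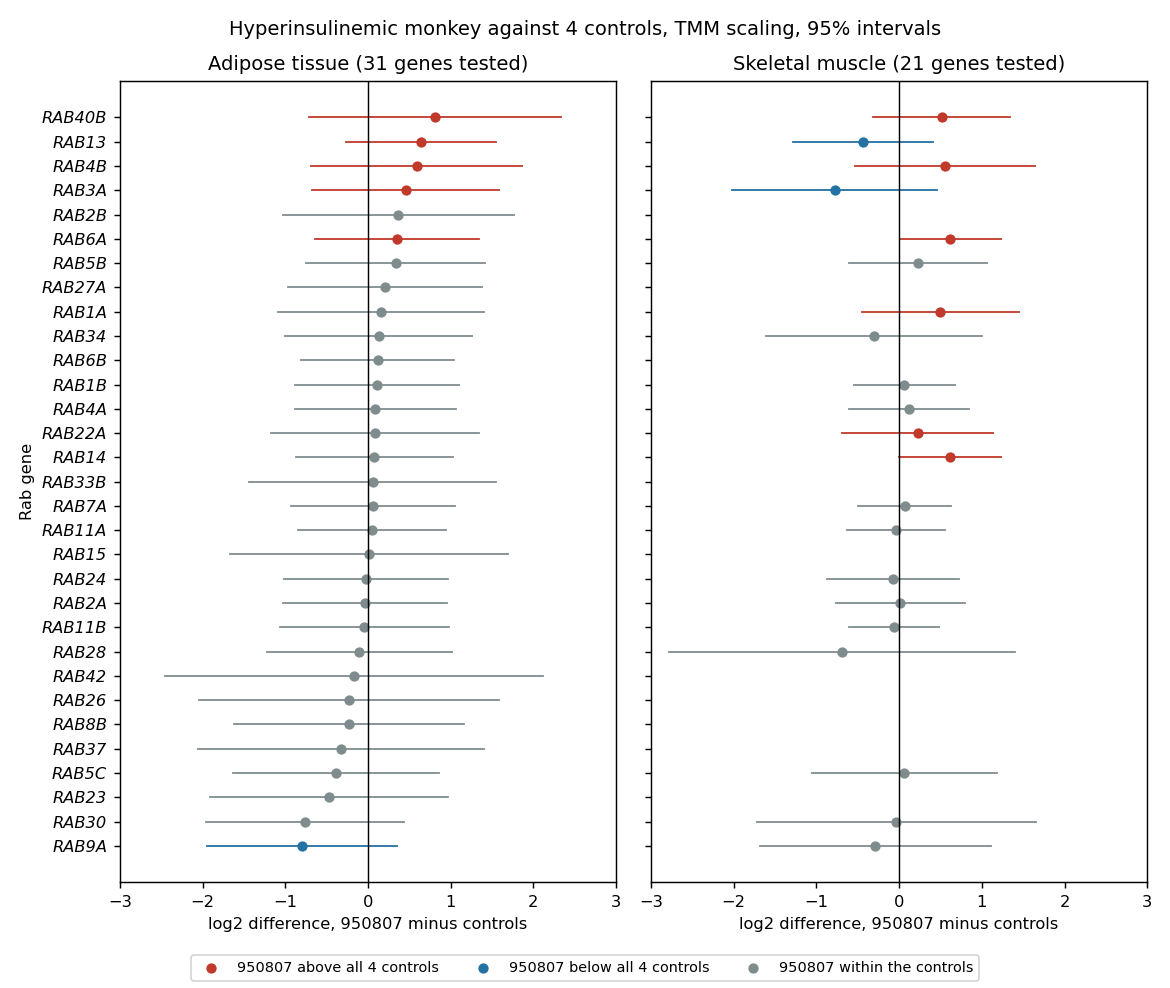
Log2 difference, hyperinsulinemic monkey minus the mean of 4 controls, with 95% intervals from edgeR under TMM, for 31 Rab genes in adipose tissue (left) and 21 in muscle (right). Colours mark whether rhesus_950807 was above, below or within the 4 controls after TMM; no gene passed the test.

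*RAB14* and *RAB6A* had the smallest p in muscle. *RAB14* was at 11.5 RPKM in muscle of rhesus_950807, against 5.47, 7.46, 6.96 and 6.75 RPKM in control muscle, with a log2 difference of 0.62 ± 0.27 (SE; edgeR adjusted p = 0.551). *RAB6A* was at 18.4 RPKM in muscle of rhesus_950807, against 8.84, 13.0, 10.8 and 9.94 RPKM in control muscle, with 0.62 ± 0.27 (edgeR adjusted p = 0.551). Both lay above every control there, and neither passed. In the same library the slow-fiber markers were low, as were the median log2 differences over smooth muscle and over macrophage markers. Their part in these values was not tested. In adipose tissue *RAB14* was at 34.8 RPKM in rhesus_950807 and 20.2 to 32.2 RPKM in controls, with a log2 difference of 0.078 ± 0.42. *RAB6A* was at 35.8 RPKM in adipose tissue of rhesus_950807 and 15.3 to 33.04 RPKM in that of controls, with 0.35 ± 0.44. Its gene overlaps another on the same strand.

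*RAB13* lay on opposite sides of the controls in the tissues. It was at 72.4 RPKM in adipose tissue of rhesus_950807, against 47.2, 41.1, 43.6 and 30.5 RPKM in that of controls. In muscle it was at 7.26 RPKM in rhesus_950807, against 6.66, 9.52, 8.59 and 10.01 RPKM in controls. The adipose value was well above every control, while the muscle value was second lowest in RPKM and below every control after TMM. Its log2 difference was 0.64 ± 0.41 in adipose tissue and −0.44 ± 0.38 in muscle. Between the tissues these effects differed by 1.10 ± 0.49 (adipose minus muscle, SE; edgeR, unadjusted p = 0.0453, adjusted p = 0.853), and by 0.90 to 1.22 under the alternatives, with adjusted p of 0.537 or more.

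*RAB40B* and *RAB4B* were above the controls in both tissues of rhesus_950807, and neither passed in either tissue. *RAB40B* was at 5.52 RPKM in adipose tissue of rhesus_950807, against 2.28, 3.61, 2.30 and 2.77 RPKM in that of controls. In muscle it was at 14.2 RPKM in rhesus_950807, against 7.65, 8.63, 9.64 and 9.30 RPKM in controls. Its log2 differences were 0.81 ± 0.68 in adipose tissue and 0.51 ± 0.37 in muscle. The 95% intervals included 0 in both. *RAB4B*, which like *RAB4A* returns cargo to the surface, was at 14.1 RPKM in adipose tissue of rhesus_950807, against 9.85, 9.49, 7.79 and 5.47 RPKM in that of controls. In muscle it was at 7.37 RPKM in rhesus_950807, against 4.05, 4.28, 4.85 and 4.61 RPKM in controls. Its log2 differences were 0.59 ± 0.57 in adipose tissue and 0.55 ± 0.49 in muscle.

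*RAB3A*, a Rab of regulated exocytosis, was at 10.98 RPKM in adipose tissue of rhesus_950807, against 3.75 to 9.05 RPKM in controls, and at 1.66 RPKM in its muscle, against 1.63 to 3.92 RPKM in controls. Its log2 differences were 0.45 ± 0.51 in adipose tissue and −0.78 ± 0.55 in muscle, and the difference between them was 1.27 ± 0.78 (edgeR adjusted p = 0.914). *RAB9A* was at 11.3 RPKM in adipose tissue of rhesus_950807, below the 13.6 to 21.9 RPKM of controls, with a log2 difference of −0.80 ± 0.51. *RAB8B* was at 7.18 RPKM in adipose tissue of rhesus_950807, within the 2.82 to 10.9 RPKM of controls, with −0.23 ± 0.62. None of these passed.

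The other genes with the smallest p in adipose tissue were *RAB5B* (0.33 ± 0.48) on the higher side and *RAB30* of the Golgi (−0.76 ± 0.54), *RAB23* (−0.47 ± 0.65), *RAB5C* (−0.38 ± 0.56) and *RAB37*, known from mast cell granules (−0.32 ± 0.78), on the lower. In muscle they were *RAB1A* (0.50 ± 0.42) and *RAB5B* (0.23 ± 0.37) on the higher side and *RAB28* (−0.69 ± 0.93), *RAB34* (−0.30 ± 0.58), *RAB9A* (−0.29 ± 0.62) and *RAB11B* (−0.061 ± 0.24) on the lower. The most abundant gene, *RAB7A*, was at 141 RPKM in adipose tissue of rhesus_950807, within the 93.5 to 151 RPKM of controls, and at 94.7 RPKM in its muscle, above the 70.0 to 89.4 RPKM of controls but within them after TMM. The 95% interval of its log2 difference was −0.93 to 1.05 in adipose tissue and −0.49 to 0.63 in muscle, and that of *RAB11B* was −1.07 to 0.98 and −0.61 to 0.48.

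When the effects were compared between the tissues, 0 of 28 Rab genes and 0% of 11270 genes passed by edgeR. An unadjusted p under 0.05 was found for 2 Rab genes and 633 genes, and DESeq2 called 0 Rab genes and 11 genes. The 2 were *RAB13* and *RAB6B*. *RAB6B* was at 7.92 RPKM in adipose tissue of rhesus_950807, within the 5.23 to 8.27 RPKM of controls, and at 0.424 RPKM in its muscle, below the 0.694 to 1.02 RPKM of controls. Its effects differed by 1.33 ± 0.54 (adipose minus muscle, SE; edgeR adjusted p = 0.853). Among the genes with the next smallest p, *RAB26* was at 1.10 ± 1.41, *RAB8B* at 0.79 ± 1.07 and *RAB34* at 0.46 ± 0.74. On the other side *RAB33B*, tied to the Golgi and autophagy, was at −1.18 ± 0.92, *RAB14* at −0.53 ± 0.48, *RAB27A* at −0.63 ± 0.80, *RAB30* at −0.74 ± 0.997, *RAB9A* at −0.50 ± 0.77 and *RAB5C* at −0.42 ± 0.76.

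The gene of the transported cargo itself was at lower values in the hyperinsulinemic monkey. *SLC2A4* was at 34.5 RPKM in adipose tissue of rhesus_950807, against 50.9, 139, 61.4 and 68.3 RPKM in that of controls. In muscle it was at 82.3 RPKM in rhesus_950807, against 148, 147, 148 and 112 RPKM in controls. It lay below every control in both tissues. The log2 difference was −1.43 ± 0.66 in adipose tissue (edgeR unadjusted p = 0.0547, and adjusted p rounds to 1) and −0.93 ± 0.28 in muscle (unadjusted p = 0.00776, adjusted p = 0.482), so neither passed. Between the tissues of the controls *SLC2A4* was lower in adipose tissue, at −2.17 ± 0.34 (SE, n = 4 per tissue; edgeR adjusted p = 0.000202) under TMM, and at −0.80 with mapped totals, where it did not pass.

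*TBC1D1*, whose product holds GLUT4 vesicles back, was at 12.3 RPKM in muscle of rhesus_950807, against 4.43, 4.27, 2.70 and 3.50 RPKM in control muscle, far above every control. This was the library with low slow-fiber markers and low medians over smooth muscle and macrophage markers. The log2 difference was 1.54 ± 0.30 (SE; edgeR unadjusted p = 0.000548, adjusted p = 0.342). It passed with DESeq2 (adjusted p = 0.00709) and with no other alternative, and their adjusted p reached 0.669. In adipose tissue it was at 9.09 RPKM in rhesus_950807, against 8.36, 5.45, 5.70 and 5.14 RPKM in controls, a log2 difference of 0.37 ± 0.41. *TBC1D4*, its close relative, was at 7.56 RPKM in adipose tissue of rhesus_950807, within the 4.75 to 10.8 RPKM of controls. In muscle *TBC1D4* was at 8.99 RPKM in rhesus_950807, above the 6.66, 5.84, 5.24 and 3.29 RPKM of controls, with 0.61 ± 0.33 (edgeR adjusted p = 0.623). *LNPEP*, an aminopeptidase that travels in GLUT4 vesicles, was at 3.31 RPKM in adipose tissue of rhesus_950807, within the 1.85 to 8.33 RPKM of controls, and was too low in muscle to be tested. The effects in adipose tissue less those in muscle were −0.46 ± 0.73 for *SLC2A4*, −1.15 ± 0.50 for *TBC1D1*, −0.76 ± 0.65 for *TBC1D4* and −1.25 ± 1.13 for *LNPEP*, and none passed.

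**Figure D5:**
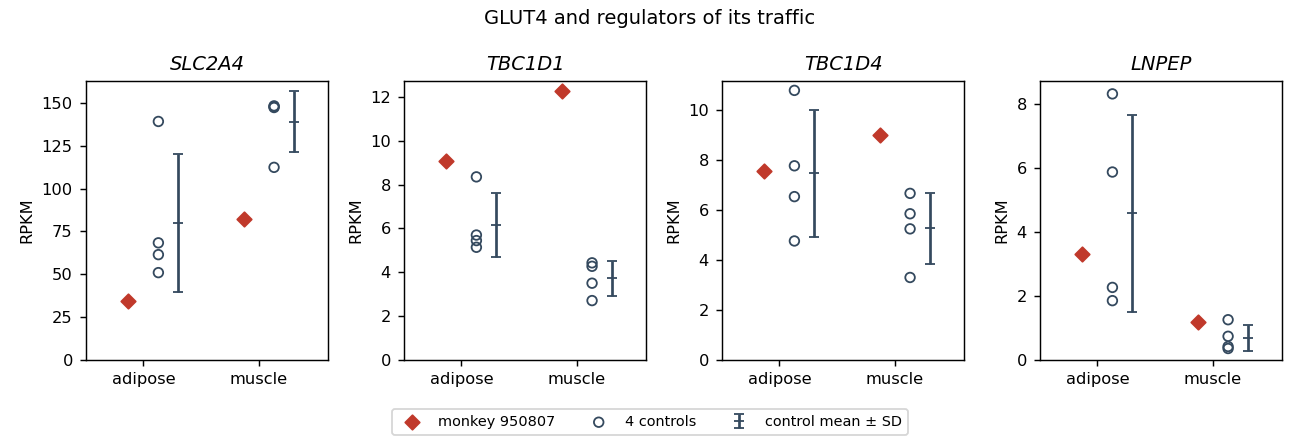
RPKM of *SLC2A4* (GLUT4), *TBC1D1*, *TBC1D4* and *LNPEP* in adipose tissue and muscle. Diamonds are the hyperinsulinemic monkey, circles the 4 controls and bars their mean ± SD; *SLC2A4* of rhesus_950807 is below every control in both tissues, and *TBC1D1* in its muscle, 12.3 RPKM, is above the 2.70 to 4.43 RPKM of the controls.

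Of the 20 genes of GLUT4 traffic tested between the tissues of the controls, 4 were higher in adipose tissue and 3 lower (29.6% and 22% of all genes). The median log2 difference was 0.43 against 0.23 over all genes. The 4 were *MYO5A*, a motor of vesicles (3.30 ± 0.51), *STX6*, a SNARE of the trans-Golgi network (2.77 ± 0.44), *RALGAPA1*, a subunit of the complex that restrains Ral GTPases (1.63 ± 0.41), and *LNPEP* (1.38 ± 0.51). All 4 averaged under 1 RPKM in control muscle and entered the comparison through their level in adipose tissue. A difference in that direction was thus built into their selection. *LNPEP* did not pass without rhesus_920401 (1.12), rhesus_940313 (1.36) or rhesus_950509 (0.94). The 3 were *CLTCL1*, *SLC2A4* and *ASPSCR1*. *CLTCL1* encodes a clathrin heavy chain known in humans for sorting GLUT4, and was at 0.531, 0.988, 0.867 and 1.58 RPKM in control adipose tissue, against 14.0, 9.02, 16.2 and 9.72 RPKM in control muscle. Its log2 difference of −4.99 ± 0.39 (SE, n = 4 per tissue; edgeR adjusted p = 1.26e-06) exceeded in size that of each Rab gene tested. *CLTCL1* averaged 0.990 RPKM in control adipose tissue and entered the comparison through its level in muscle. *ASPSCR1*, whose protein TUG tethers GLUT4 vesicles inside the cell, was at −1.34 ± 0.28 under TMM and 0.058 with mapped totals. *GGA2*, *AKT2*, *TBC1D1* and *TBC1D4* stayed within the limit of 1, at 0.85 ± 0.24, −0.97 ± 0.25, −0.66 ± 0.23 and −0.87 ± 0.29 under TMM, of which the last 3 lay above 0 with mapped totals. *AKT2*, at the limit, passed as lower in adipose tissue with median-of-ratios scaling (−1.05), DESeq2 (−1.05), no filter (−1.01) and the animal as a block (−1.01), and without rhesus_940129 (−1.34) or rhesus_950509 (−1.01).

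Of 21 genes tested that load, turn off or carry Rab proteins, 6 were higher in adipose tissue and 6 in muscle (29.6% and 22% of all genes). Higher in adipose tissue were, among others, the GTPase-activating protein gene *RABGAP1L* (3.48 ± 0.46), *DENND4C*, the exchange factor of RAB10 (2.79 ± 0.41), *MON1B*, part of the exchange factor of RAB7 (1.53 ± 0.23), and *RIN2*, an exchange factor of RAB5 (1.66 ± 0.35). Higher in muscle were, among others, *MADD*, the exchange factor of RAB3 (−1.90 ± 0.24), *MON1A*, the paralog of *MON1B* (−1.44 ± 0.25), and *RABAC1*, a receptor for prenylated Rab proteins (−1.22 ± 0.22). With mapped totals none of these 3 passed, at −0.51 for *MADD*, −0.054 for *MON1A* and 0.17 for *RABAC1*. *DENND4C* was at 12.7, 4.69, 9.09 and 19.4 RPKM in control adipose tissue, against 0.475, 0.580, 0.547 and 0.955 RPKM in control muscle, without overlap. *RABGAP1L*, *DENND4C*, *MON1B* and *RIN2* averaged under 1 RPKM in control muscle and entered the comparison through their level in adipose tissue. A difference in that direction was thus built into their selection.

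Of 15 effector genes tested, 2 were higher in adipose tissue and 3 in muscle (29.6% and 22% of all genes). The 3 bind RAB7 or RAB8. *RILP*, which links RAB7 to dynein, was at 2.40, 3.01, 1.68 and 2.64 RPKM in control adipose tissue, against 8.41, 13.0, 12.3 and 7.97 RPKM in control muscle, with a log2 difference of −3.47 ± 0.27. *FYCO1*, which links RAB7 to kinesin, was at −2.86 ± 0.26, and *OPTN*, which binds RAB8 and serves autophagy, at −2.67 ± 0.27. All 3 also passed with mapped totals. Higher in adipose tissue were *RAB11FIP2*, an effector of RAB11 (1.62 ± 0.44), and *EEA1*, the endosome tether of RAB5 (1.37 ± 0.54). *RAB11FIP2* averaged 0.577 RPKM in control muscle and entered the comparison through its level in adipose tissue. *EEA1* did not pass without rhesus_920401 (1.22), rhesus_940313 (1.01) or rhesus_950509 (1.41), or without the adipose libraries of rhesus_920401 and rhesus_940313 (1.33). *BICD2*, *MICAL1* and *RABEP2* did not pass, at −0.75 ± 0.19, 0.72 ± 0.40 and 0.69 ± 0.44, and *BICD2* lay above 0 with mapped totals.

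Among coat and SNARE genes 11 of 31 were higher in adipose tissue and 5 in muscle (29.6% and 22% of all genes), with a median log2 difference of 0.60 against 0.23 over all genes. *SEC24D* (2.001 ± 0.32) and *SEC31A* (1.25 ± 0.20) of the COPII coat, *COPB2* (1.46 ± 0.22) of the COPI coat and the clathrin heavy chain gene *CLTC* (1.59 ± 0.27) were among the higher. *SEC24D* averaged 0.647 RPKM in control muscle and entered the comparison through its level in adipose tissue. *CLTC* was at 42.8, 22.3, 33.9 and 43.5 RPKM in control adipose tissue, against 5.61, 4.46, 3.14 and 4.93 RPKM in control muscle, the opposite order to that of *CLTCL1*. Higher in muscle were *SAR1B*, the GTPase that starts the COPII coat (−2.31 ± 0.30), the clathrin light chain gene *CLTB* (−2.04 ± 0.21), the adaptor subunit gene *AP2M1* (−1.54 ± 0.23) and *NAPA*, which serves SNARE disassembly (−1.44 ± 0.23). None of these 4 passed with mapped totals, at −0.94 for *SAR1B*, −0.64 for *CLTB*, −0.15 for *AP2M1* and −0.057 for *NAPA*. In rhesus_950807 no gene of the GLUT4, Rab cycle, effector, coat and SNARE lists passed by edgeR in either tissue. An unadjusted p under 0.05 was found for 0 genes of these lists in adipose tissue, against 2.39% of all genes. In muscle it was found for 2 of 15 GLUT4 genes, 1 of 15 Rab cycle genes, 1 of 13 effector genes and 2 of 29 coat and SNARE genes, against 9.08% of all genes tested there.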

How the data were processed

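Poly(A) RNA of adipose tissue and skeletal muscle of 5 monkeys was sequenced with a strand-specific protocol. The authors mapped reads with TopHat (1.2.0 in the submitters' processing notes, another release in the study's methods), kept uniquely mapped reads, and deposited read counts per Ensembl gene and RPKM (per transcript length and mapped total). The genome build, the counting tool and its use of strand were not given in the sources used. Genes were joined by identifier and named by an Ensembl table.

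Counts were tested with edgeR 4.0.16 (quasi-likelihood, TMM) on R 4.3.3 where the mean over a fit reached 1 RPKM, adjusted over all genes tested, and with limma 3.58.1 and DESeq2 1.42.0 as alternatives. The script was tested on simulated counts. Paralog ratios were tested with scipy 1.17.1. Each monkey gave both tissues, but the deviations of an animal's tissues from the control means correlated by −0.170 to 0.161, so the main fits have no animal block. Named genes are those tied to GLUT4, the 6 most changed Rab genes each way, or those of smallest p where fewer than 6 passed, the 5 most abundant per tissue and up to 4 members each way of each other list. The Rab genes and the lists were chosen with earlier results of these data known. Of the marker lists, macrophage, T and NK cell, endothelial, fibroblast, erythroid and neural sums lay above all controls in adipose tissue of rhesus_950807, mast cell sums below, and adipocyte, skeletal muscle, neutrophil, smooth muscle and mesothelial sums within. In its muscle, skeletal muscle sums lay above, T and NK cell and fibroblast sums below, and the others within.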

Additional observations from a re-analysis of the deposited data

Results flagged for a closer look

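Among the 52 sets of 4 control values examined, of Rab genes that were tested in a tissue, 3 had 1 library far from the other 3, and chance gives about 1 in 20, or 2.6. In control adipose tissue *RAB14* was at 20.2 RPKM in rhesus_940129, against 30.9 to 32.2 RPKM in the other controls. In the same library *RAB15*, which acts in endocytic recycling, was at 2.09 RPKM, against 0.812 to 0.842 RPKM in the others. In control muscle *RAB11B* was at 52.6 RPKM in rhesus_920401, against 47.4 to 48.2 RPKM in the others.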

How the results depend on the processing

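Depth limits genes such as *RAB2B* in muscle, at 1 to 30 reads in controls, and 1 hyperinsulinemic animal limits its comparisons. No Rab gene passed for rhesus_950807 in either tissue, or for the difference of effects, under any alternative. Over all genes, where 0 passed, the alternatives gave 0 to 88 calls in muscle, 0 to 33 in adipose tissue and 0 to 11 for the difference of effects. Between tissues 10 to 13 Rab genes passed when each control was left out, 21 with mapped totals, and with the animal as a replicate block 12, where *RAB28* passed in place of *RAB5C*. That block, and limma with animals as a block within tissues, changed no other call of a Rab gene. Of 1097 alternative values for 114 named results, 39 changed sign, 4 of them in results that had passed. With mapped totals and adipose against muscle, *RAB4A* was at 0.18, *RAB5B* 0.072, *ASPSCR1* 0.058 and *RABAC1* 0.17, all of which had passed below 0, and *RAB7A* 0.56, *RAB11B* 0.72, *TBC1D1* 0.73, *TBC1D4* 0.50, *AKT2* 0.42 and *BICD2* 0.62, since this scaling moves every gene upward. With it rhesus_950807 minus controls was 0.11 for *RAB11B* and 0.13 for *RAB11A* in muscle, and 0.15 for *RAB11B*, 0.15 for *RAB2A* and 0.019 for *TBC1D4* in adipose tissue. With limma's block *RAB7A* was at −0.0043, *RAB2A* −0.027 and *RAB1B* −0.013 in muscle. Without the adipose libraries of rhesus_920401 and rhesus_940313, *RAB2A* was at 0.15 in adipose tissue. For the difference of effects *RAB2A* was at 0.015 with median-of-ratios scaling and at 0.015 with DESeq2. Leaving out each control gave, for the difference of effects, −0.060 to 0.32 for *RAB11B*, −0.30 to 0.13 for *RAB2A*, −0.15 to 0.46 for *RAB5B*, −0.10 to 0.15 for *RAB7A* and −0.70 to 0.022 for *SLC2A4*. In adipose tissue it gave −0.16 to 0.14 for *RAB11B*, −0.045 to 0.19 for *RAB14*, −0.18 to 0.062 for *RAB2A*, −0.036 to 0.16 for *RAB7A*, −0.49 to 0.0051 for *RAB8B* and −0.32 to 0.061 for *TBC1D4*, and in muscle −0.075 to 0.22 for *RAB2A*. None of these differences of rhesus_950807 passed, and the cause was not tested.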
